A study of Mus musculus with 12 samples.

Results

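The 8 genes described here are *Arg1*, *Tgm2*, *Mrc1*, *Il4ra*, *Chil3*, *Retnla*, *Folr2* and *Stat6*, listed together under the alternative (interleukin 4-driven) activation of macrophages. They were chosen by name with the thymol against DMSO values of these same libraries already known, so their differences in that comparison are given as a description and carry no p-value. Of the 8 genes, 7 were found by symbol among the 10697 genes of the table, and *Retnla* was not analysed here. The libraries came from primary mouse adult fibroblasts (MAFs), wild-type cells grown out of C57BL6/j biopsies. They received either 100 µM thymol, a phenolic monoterpene of thyme, dissolved in DMSO (6 libraries) or an equal volume of DMSO (6 libraries), in both cases for 24 h. QuantSeq 3′ mRNA sequencing reads the 3′ end of polyadenylated transcripts, so read numbers depend little on transcript length. Whether capture and mapping of the 3′ end differed between genes was not tested, so levels of different genes are compared only roughly. Levels are log2 CPM, that is log2 reads scaled to a common library size with a small constant added, and differences are thymol minus DMSO on that log2 scale.

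In alternative activation, interleukin 4 (IL-4) or interleukin 13 binds a receptor that holds the IL-4 receptor alpha chain (*Il4ra*), Janus kinases attached to the receptor phosphorylate the transcription factor STAT6, and STAT6 enters the nucleus and switches on its target genes. The textbook targets in the mouse are arginase 1 (*Arg1*), which splits arginine into ornithine and urea, the mannose receptor CD206 (*Mrc1*), the chitinase-like protein Ym1 (*Chil3*) and the resistin-like molecule FIZZ1 (*Retnla*). Transglutaminase 2 (*Tgm2*), an enzyme that cross-links proteins and also acts at the cell surface, is a marker of this state shared by mouse and human macrophages, and folate receptor beta (*Folr2*) marks resident tissue macrophages.

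The label of the cells is fibroblast, and the libraries carried the transcripts of both cell types. All 18 listed macrophage markers were measured, and their mean was 8.48 ± 0.035 log2 CPM in the DMSO libraries and 8.50 ± 0.046 in the thymol libraries (SD, n = 6 each). *Lyz2*, which encodes lysozyme, stood at 13.61 log2 CPM with DMSO. Of the 12 fibroblast markers 10 were measured, and their mean was 8.19 ± 0.060 log2 CPM in the DMSO libraries and 8.04 ± 0.048 in the thymol libraries. The mean log2 levels of the fibroblast markers overlapped, at 8.10 to 8.26 with DMSO and 7.98 to 8.12 with thymol. Their sum, weighted to the most abundant markers (*Col1a1* and *Col1a2*, at 11.95 and 11.71 log2 CPM with DMSO), did not. It ranged from 9004 to 10118 CPM with DMSO and from 7994 to 8644 with thymol. The summed macrophage markers ranged from 20065 to 22041 CPM and from 20366 to 24315, which overlapped. Of the 10 fibroblast markers, 8 had a difference below 0 and 2 above, *Pdgfra* at 0.33 and *Pdgfrb* at 0.0021. In the fit over the whole table (limma, adjusted p under 0.05), *Col1a1* and *Col3a1* passed as lower among the fibroblast markers, and *Ctss* as higher and *Itgam* as lower among the macrophage markers. No marker of dendritic cells (0 of 5), T cells (0 of 5) or keratinocytes (0 of 3) was in the table, and of the neutrophil, mast cell and basophil, and endothelial markers 1 of 7 (*S100a8*), 1 of 6 (*Mcpt8*) and 1 of 4 (*Cdh5*) were. In bulk RNA, fewer cells of a type and less RNA of a gene per cell cannot be told apart. The share of the marker shifts in the differences below was not tested. Which cell type the reads of each gene came from was not tested either.

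Promoter sequence was read from RefSeq (assembly GRCm38.p6, 250 bases before to 50 after a transcription start) for 6 of the 8 genes, with no entry matched for *Arg1* and *Tgm2*. Each window was searched on both strands for 4 short motifs, namely the palindrome of STAT6 with 4 bases between its arms, TTGCNNAA for C/EBP factors, GAGGAA for PU.1, the lineage factor of macrophages, and TGANTCA for AP-1. The 4 windows below are shown because they hold the only STAT6 motif of the set (*Retnla*), the 2 starts of the gene that was higher with thymol (*Folr2*) and the surface receptor with the most PU.1 motifs (*Mrc1*). They are written 5′ to 3′ on the strand of the gene, and capitals mark the motif matches.
Retnla, chr16:48842359-48842658, plus strand: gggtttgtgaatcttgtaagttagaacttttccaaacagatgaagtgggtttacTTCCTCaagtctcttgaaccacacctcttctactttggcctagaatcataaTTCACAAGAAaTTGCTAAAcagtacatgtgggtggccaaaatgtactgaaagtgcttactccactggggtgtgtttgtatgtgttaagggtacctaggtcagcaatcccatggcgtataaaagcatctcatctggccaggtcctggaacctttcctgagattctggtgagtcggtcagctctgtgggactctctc
Folr2 first window, chr7:101857141-101857440, minus strand: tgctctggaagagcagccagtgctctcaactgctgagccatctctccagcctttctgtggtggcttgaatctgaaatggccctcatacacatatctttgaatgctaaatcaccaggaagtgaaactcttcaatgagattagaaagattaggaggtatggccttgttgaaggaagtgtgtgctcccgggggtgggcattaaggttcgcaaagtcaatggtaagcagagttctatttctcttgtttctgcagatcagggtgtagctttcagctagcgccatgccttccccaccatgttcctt
Folr2 second window, chr7:101845282-101845581, minus strand: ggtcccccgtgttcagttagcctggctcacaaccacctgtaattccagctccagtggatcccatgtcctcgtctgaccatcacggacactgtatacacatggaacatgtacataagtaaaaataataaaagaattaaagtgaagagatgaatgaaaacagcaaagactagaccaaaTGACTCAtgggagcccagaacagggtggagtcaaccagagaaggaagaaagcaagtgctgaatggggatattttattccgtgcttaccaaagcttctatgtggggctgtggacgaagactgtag
Mrc1, chr2:14229164-14229463, plus strand: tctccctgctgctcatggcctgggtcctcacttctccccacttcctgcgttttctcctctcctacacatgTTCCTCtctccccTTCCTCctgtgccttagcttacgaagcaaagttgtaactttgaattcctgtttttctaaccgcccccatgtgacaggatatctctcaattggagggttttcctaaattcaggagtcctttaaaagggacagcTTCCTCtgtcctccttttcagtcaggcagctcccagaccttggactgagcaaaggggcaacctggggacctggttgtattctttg

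The *Retnla* window held 1 STAT6 motif, 1 C/EBP motif directly downstream of it and 1 PU.1 motif upstream of both. The *Mrc1* window held 3 PU.1 motifs, the *Stat6* window (not shown) held 2, the second *Folr2* window held 1 AP-1 motif, and the first *Folr2* window, *Il4ra* and *Chil3* held none of the 4. Across all 32851 RefSeq promoters the STAT6 motif was present in 6.95%, the C/EBP motif in 10.8%, the PU.1 motif in 28.3% and the AP-1 motif in 7.81%. A match of letters is not evidence of binding.

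Of the 7 measured genes, *Arg1* and *Tgm2* were lower and *Folr2* was higher with thymol past an adjusted p of 0.05 in the fit over all genes (limma, Benjamini-Hochberg), and the other 4 did not pass. Of all 10697 genes 2.22% passed, 0.654% as higher and 1.57% as lower. The 6 thymol values lay entirely below the 6 DMSO values for *Arg1* and *Tgm2* and overlapped them for the other 5, whereas 1.68% of all genes were separated in either direction. Because the genes were chosen with these values known, nothing is read from these counts. The median difference was -0.19 over the 7 genes and 0.0026 over all genes.

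**Figure D1:**
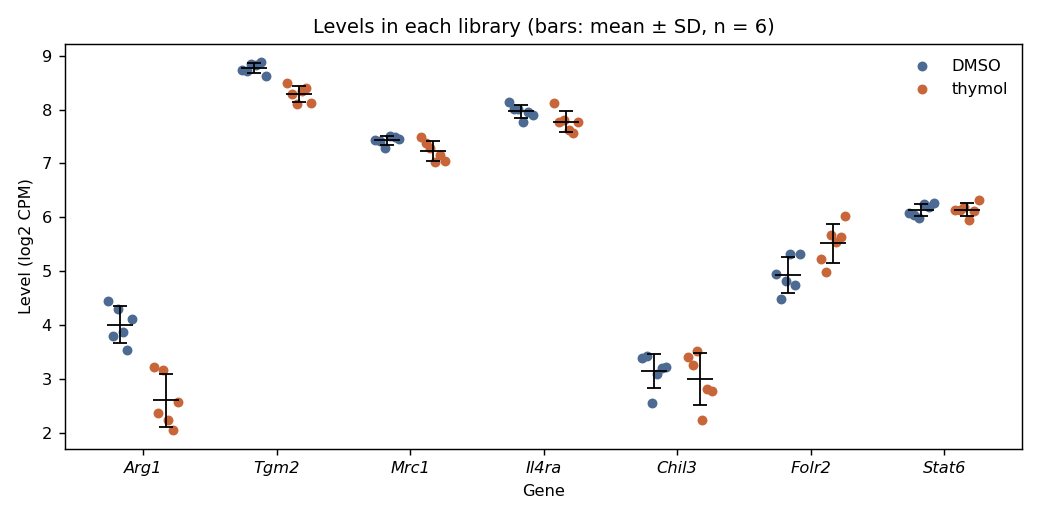
Level in log2 CPM (vertical axis) of the 7 measured genes in each library, DMSO in blue and thymol in orange, with bars for the mean ± SD of 6 libraries. The *Arg1* and *Tgm2* points of the 2 groups do not overlap, the *Folr2* points lie higher with thymol but overlap, and *Stat6* has nearly equal means of 6.14 with DMSO and 6.14 with thymol.

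The order of the levels was the same in both groups for the 5 most abundant genes and switched between the 2 lowest. With DMSO the order was *Tgm2*, *Il4ra*, *Mrc1*, *Stat6*, *Folr2*, *Arg1* and *Chil3*, from a mean of 8.77 down to 3.15 log2 CPM, and the ranges of neighbours did not overlap. With thymol *Chil3* stood above *Arg1* in the means, at 3.01 against 2.61 log2 CPM, and their ranges overlapped. The ranges of *Tgm2* and *Il4ra*, and of *Stat6* and *Folr2*, also overlapped with thymol.

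The receptor chain and its transcription factor came first in the pathway. *Il4ra* (chr7:125552120-125579474, plus strand) ranged from 7.76 through a median of 7.98 to 8.14 log2 CPM with DMSO, and from 7.56 through 7.76 to 8.13 with thymol. The thymol library numbered 1 was close to the highest DMSO library, and the other 5 lay near or below the lowest. The difference was -0.19 ± 0.069 (SE, here and below the moderated SE of limma). *Stat6* (chr10:127642986-127660957, plus strand) ranged from 5.98 through 6.14 to 6.27 log2 CPM with DMSO and from 5.95 through 6.14 to 6.32 with thymol. Its difference of 0.0080 ± 0.084 (SE) was within the spread between libraries, and its transcripts carried no information on phosphorylation, by which STAT6 is activated. *Nab2* overlaps *Stat6* on the opposite strand and a predicted antisense gene overlaps *Il4ra*, and the strand setting of the counting is not given in the sources used here.

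Around them, 18 of 22 listed genes of IL-4 and IL-13 signaling were measured. *Il4*, *Il13*, the decoy receptor gene *Il13ra2* and the kinase gene *Jak3* were not analysed here. Of the 18, 0 passed as higher and 1 as lower, beside 0.654% and 1.57% of all genes. The median difference was 0.046, against 0.0026 over all genes. The gene that fell was *Il2rg*, which encodes the common gamma chain that pairs with the IL-4 receptor alpha chain in blood cells and also serves other interleukin receptors. *Il2rg* ranged from 4.92 through 5.22 to 5.38 log2 CPM with DMSO and from 4.34 through 4.77 to 4.89 with thymol. The groups did not overlap, and the difference was -0.48 ± 0.12 (SE, limma adjusted p = 0.019). The call was lost when DMSO library 4, 5 or 6 or thymol library 2 was left out, with an adjusted p of up to 0.082. The protein-coding gene *Gm20489* overlaps *Il2rg* on the same strand, and the effect on the count was not tested. The most abundant genes of the list were *Jak1*, the kinase bound to *Il4ra*, with 8.49 ± 0.12 log2 CPM with DMSO and 8.40 ± 0.097 with thymol, *Ptpn1*, a phosphatase, with 7.38 ± 0.088 and 7.56 ± 0.057, and *Crebbp*, a coactivator, with 7.36 ± 0.10 and 7.40 ± 0.11 (SD, n = 6 each). None of these 3 passed the threshold (limma adjusted p = 0.60, 0.12 and 0.90).

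Of 14 listed transcription regulators of alternative activation 12 were measured, with *Irf4* and *Pparg* not analysed here, and 1 passed, beside 2.22% of all genes. The gene was *Hif1a*, a subunit of the oxygen-regulated transcription factor HIF. *Hif1a* ranged from 7.27 through 7.41 to 7.56 log2 CPM with DMSO and from 6.93 through 7.13 to 7.33 with thymol, so that the groups overlapped slightly. It fell by 0.26 ± 0.070 (SE, limma adjusted p = 0.027). The call was lost when any of 6 libraries was left out (DMSO 2, 4 and 6, thymol 2, 3 and 6), with an adjusted p of up to 0.13. The difference was -0.43 in the even-numbered libraries and -0.090 in the odd-numbered ones (3 against 3 in both). The gap between odd and even differences passed in limma for 0 of 10697 genes. The protein-coding gene *Gm49321* overlaps *Hif1a* on the same strand and an antisense gene on the opposite strand, and the effect on the count was not tested. *Maf*, a factor of macrophage differentiation, was the most abundant regulator named here. It stood at 9.05 ± 0.070 log2 CPM under DMSO and 8.93 ± 0.098 under thymol (SD, n = 6 each, limma adjusted p = 0.33). The median difference of the 12 regulators was -0.098, against 0.0026 over all genes.

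*Arg1* (chr10:24915221-24927484, minus strand, 8 exons, overlapping no other annotated gene) had the largest difference of the set. It ranged from 3.54 through a median of 4.00 to 4.44 log2 CPM with DMSO and from 2.05 through 2.48 to 3.23 with thymol. Every thymol library was below every DMSO library, and the thymol libraries 1 and 3 were higher than the other 4. The mean was 4.01 ± 0.33 under DMSO and 2.61 ± 0.49 under thymol (SD, n = 6 each), a difference of -1.40 ± 0.22 (SE) or 0.378 times the DMSO level, the fourth largest absolute difference of the table. The level was low, at rank 8918 of 10697 genes. The whole reads recovered from the log2 values numbered 71 to 161 per DMSO library and 26 to 59 per thymol library. With 10 CPM added before the logarithm, which damps genes with few reads, the difference was -0.69. Leaving out each library in turn gave -1.53 to -1.29.

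**Figure D2:**
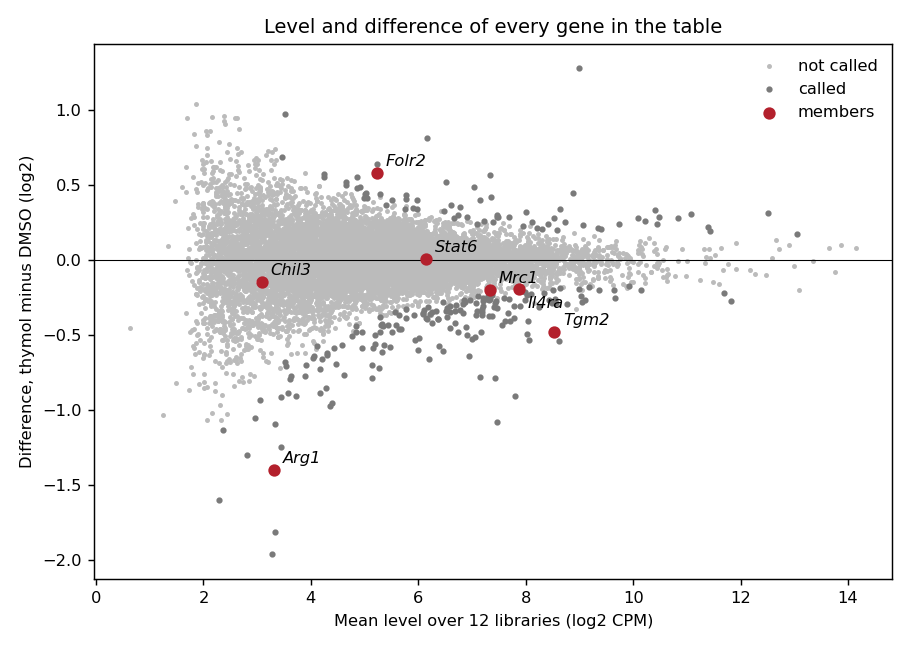
Mean level over the 12 libraries in log2 CPM (horizontal axis) against the thymol minus DMSO difference in log2 (vertical axis) for all 10697 genes, with called genes in dark grey and the 7 measured genes of the set in red. *Arg1* lies at a low level of 3.31 with a difference of -1.40, and *Tgm2* at a high level of 8.53 with -0.48.

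Arginase 1 competes with nitric oxide synthase for arginine and feeds ornithine to the synthesis of polyamines and proline. The 26 listed genes of arginine, nitric oxide and polyamine metabolism had 20 in the table, with *Arg2*, *Gatm*, *Agmat*, *Nos1*, *Nos2* and *Nos3* not analysed here. By the limma fit 0 of the 20 passed, beside 2.22% of all genes. An unadjusted p under 0.05 was found for 1 of the 20 and for 1261 of all 10697 genes. The median difference was 0.014 and the range was -0.27 to 0.17. The most abundant were *Slc3a2*, the heavy chain of amino acid transporters, at 8.29 ± 0.059 log2 CPM with DMSO and 8.36 ± 0.060 with thymol, *Ddah1*, which degrades methylated arginines, at 7.84 ± 0.10 and 7.79 ± 0.11, and *Oat*, ornithine aminotransferase, at 7.03 ± 0.13 and 6.99 ± 0.11 (SD, n = 6 each). Their adjusted p-values in limma were 0.65, 0.83 and 0.91.

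*Tgm2* (chr2:158116402-158146436, minus strand, 13 exons) was the most abundant of the 7 genes, at rank 364 of the table. It ranged from 8.62 through a median of 8.78 to 8.87 log2 CPM with DMSO and from 8.11 through 8.31 to 8.49 with thymol. The groups did not overlap, and the gap between the lowest DMSO and the highest thymol library was smaller than the range within either group. The mean was 8.77 ± 0.097 under DMSO and 8.29 ± 0.15 under thymol (SD, n = 6 each), a difference of -0.48 ± 0.060 (SE) or 1.39-fold lower. With 1504 to 3681 recovered reads per library, the value was hardly affected by the added constant, and with 10 CPM added it was -0.46. Leaving out each library in turn gave -0.52 to -0.44. *Rprd1b* and a predicted gene overlap *Tgm2* on the opposite strand. Whether macrophages or fibroblasts gave the *Tgm2* reads was not tested.

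At the cell surface transglutaminase 2 binds fibronectin, integrins, the receptor LRP1 and the bridging protein MFG-E8. Of 9 listed partners 8 were measured and 1 passed, as higher, beside 0.654% of all genes. The median difference of the 8 was 0.038, against 0.0026 over all genes. *Mfge8*, which links phosphatidylserine on dying cells to integrins of the phagocyte, ranged from 10.17 through 10.34 to 10.40 log2 CPM with DMSO and from 10.50 through 10.52 to 10.70 with thymol. The groups did not overlap and the rise was 0.24 ± 0.047 (SE, limma adjusted p = 0.00074), and the call was kept in all 12 fits that left out 1 library. *Itgb1*, the integrin beta 1 chain and the most abundant partner, stood at 11.04 ± 0.032 log2 CPM under DMSO and 10.93 ± 0.064 under thymol (SD, n = 6 each). Its groups did not overlap, but its difference of -0.11 ± 0.043 (SE) did not pass in limma (adjusted p = 0.25). *Fn1*, fibronectin, stood at 10.13 ± 0.069 and 10.20 ± 0.12 log2 CPM, with an adjusted p of 0.61 in limma. Many of these partners, *Fn1* and *Itgb1* among them, are also expressed by fibroblasts.

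The surface receptors had differences of opposite sign. *Mrc1* (chr2:14229392-14332057, plus strand, 30 exons, with *Mir511* inside it on the same strand) ranged from 7.28 through a median of 7.45 to 7.52 log2 CPM with DMSO and from 7.02 through 7.23 to 7.49 with thymol. The thymol libraries 1 to 3 were within the DMSO range and the libraries 4 to 6 were below it. The difference was -0.20 ± 0.071 (SE). Without thymol library 1 both *Mrc1*, then at -0.25, and *Il4ra*, then at -0.26, passed the threshold of the fit over all genes, and 5 rather than 3 of the 7 genes were called, while the genes called over the whole set rose from 238 to 270.

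*Folr2* (chr7:101839988-101857194, minus strand) ranged from 4.48 through a median of 4.89 to 5.33 log2 CPM with DMSO and from 4.99 through 5.59 to 6.02 with thymol. The thymol libraries 1 and 2 were inside the DMSO range and the other 4 were above it. The mean was 4.94 ± 0.33 under DMSO and 5.52 ± 0.36 under thymol (SD, n = 6 each), a difference of 0.58 ± 0.14 (SE) or 1.49-fold higher. Recovered reads numbered 153 to 279 per DMSO library and 186 to 451 per thymol library. Without thymol library 6, the highest, the difference was 0.48 and *Folr2* no longer passed, which left 2 of the 7 genes and 172 of all genes called. It also did not pass without the mean-variance trend or in the even-numbered libraries alone. A predicted antisense gene and a pseudogene overlap *Folr2* on the opposite strand.

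*Chil3* (chr3:106147554-106167564, minus strand), whose secreted product binds sugars without chitinase activity, was the least abundant with DMSO. It ranged from 2.56 through a median of 3.22 to 3.43 log2 CPM with DMSO and from 2.24 through 3.04 to 3.53 with thymol, on 26 to 77 recovered reads per library. The 2 groups covered almost the same range, and the difference of -0.15 ± 0.24 (SE) was within the spread between libraries. In the last 300 bases of its transcripts 10.6% of the stretches of 50 bases also occur in *Chil4* or *Gm6522*, a share that was 0% for the other genes. The effect on its count was not tested. *Retnla* (chr16:48842551-48844461, plus strand) was not analysed here.

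The remaining markers of the 2 activation states were compared in the same fit. Of 30 other alternative activation markers 16 were measured, and 1 passed as higher and 1 as lower, beside 0.654% and 1.57% of all genes. The median difference of the 16 was -0.052, against 0.0026 over all genes. *Trem2*, a lipid-sensing receptor of macrophages, ranged from 7.71 through 7.85 to 7.93 log2 CPM with DMSO and from 7.98 through 8.09 to 8.15 with thymol. The groups did not overlap and the rise was 0.23 ± 0.057 (SE, limma adjusted p = 0.017), which no longer passed without DMSO library 3 or thymol library 6. *Il1rn*, the interleukin 1 receptor antagonist, ranged from 3.82 through 4.32 to 4.76 log2 CPM with DMSO and from 2.92 through 3.65 to 4.19 with thymol. The groups overlapped and the fall was -0.70 ± 0.20 (SE, limma adjusted p = 0.039). This call was lost without any of 7 libraries (DMSO 1, 2, 3 and 6, thymol 2, 4 and 5), with an adjusted p of up to 0.15. Besides *Fn1*, the most abundant of these markers were *Lipa*, lysosomal acid lipase, at 9.31 ± 0.11 log2 CPM with DMSO and 9.40 ± 0.066 with thymol, and *Igf1*, at 9.29 ± 0.060 and 9.43 ± 0.10 (SD, n = 6 each, limma adjusted p = 0.51 and 0.20).

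Of 26 classical activation markers 9 were measured, and 0 passed as higher and 1 as lower, beside 0.654% and 1.57% of all genes. The median difference of the 9 was -0.27, against 0.0026 over all genes. The gene that fell was *Il6*, the inflammatory cytokine, by 0.77 ± 0.17 (SE, limma adjusted p = 0.0033), from a range of 4.09 through 4.20 to 4.55 log2 CPM with DMSO to 3.32 through 3.43 to 3.81 with thymol. The groups did not overlap. *Ptgs2*, cyclooxygenase 2, stood at 9.08 ± 0.14 log2 CPM with DMSO and 9.05 ± 0.12 with thymol, the monocyte attractant *Ccl2* at 7.02 ± 0.10 and 6.92 ± 0.13, and the interferon regulator *Irf1* at 5.43 ± 0.094 and 5.16 ± 0.17 (SD, n = 6 each, limma adjusted p = 0.92, 0.65 and 0.24). *Nos2*, the inducible nitric oxide synthase, was not analysed here. Fibroblasts also express *Il6*, *Ptgs2* and *Ccl2*.

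**Figure D3:**
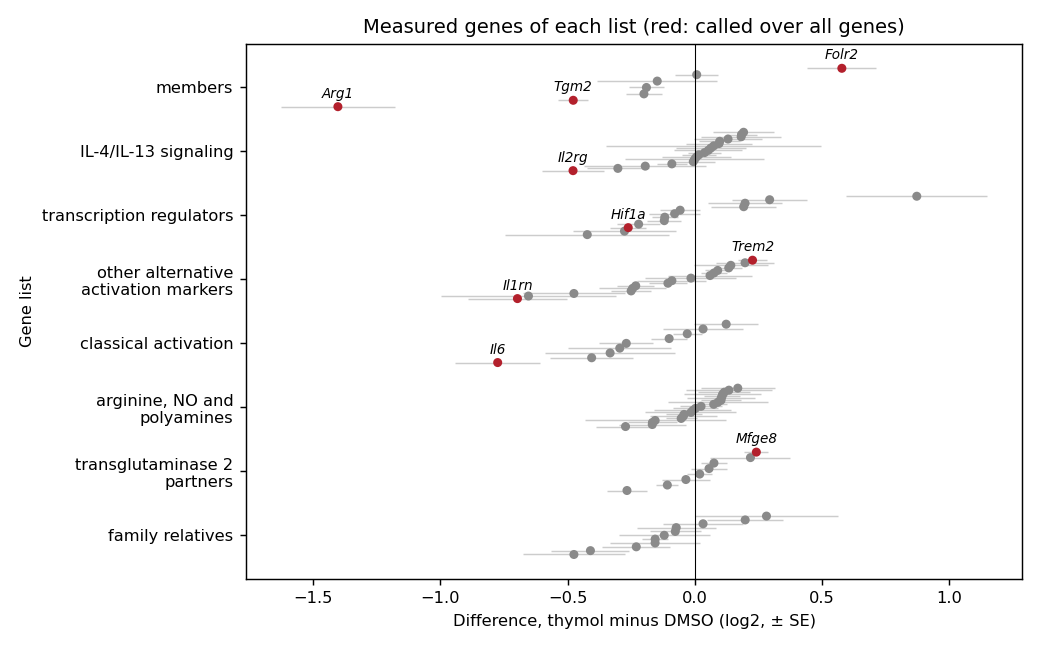
Thymol minus DMSO difference in log2 with its SE (horizontal axis) for each measured gene of each list (vertical axis), with genes called over all genes in red and named. *Arg1* is farthest to the left at -1.40, and the classical markers have 7 of 9 points below 0 and a median of -0.27. Of all 10697 genes 5256 lay below 0, and the median was 0.0026.

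Of 31 listed relatives of the 8 genes 11 were measured. In limma 0 of the 11 passed, beside 2.22% of all genes, and the median difference was -0.12. An unadjusted p under 0.05 was found for 3 of the 11, all lower. Over all 10697 genes it was found for 1261, 689 of them lower. *Stat3*, the most abundant STAT gene of the list, stood at 8.57 ± 0.065 log2 CPM under DMSO and 8.42 ± 0.023 under thymol (SD, n = 6 each). Its groups did not overlap and its difference was -0.16 ± 0.052 (SE, limma adjusted p = 0.11). *Mrc2*, the collagen-binding relative of *Mrc1*, stood at 5.70 ± 0.15 and 5.62 ± 0.19 log2 CPM, and *Stat5b* at 4.71 ± 0.17 and 4.48 ± 0.16 (limma adjusted p = 0.86 and 0.54). The transglutaminase genes *Tgm1* and *Tgm3* to *Tgm7* were not analysed here.

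Over all lists, 90 of 151 distinct genes were measured, 42 lay above 0 and 48 below, and the median difference was -0.011. Of the 90, 6 passed (2 higher, 4 lower), beside 2.22% of all genes. The 2 groups did not overlap for 6 of the 90, *Il2rg*, *Trem2*, *Il6*, *Itgb1*, *Mfge8* and *Stat3*, beside 1.68% of all genes. The count of 6 called genes fell to 3 without DMSO library 6 or without thymol library 2, where *Trem2*, *Il6* and *Mfge8* were left. It was 1 (*Il6*) without the mean-variance trend.

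**Figure D4:**
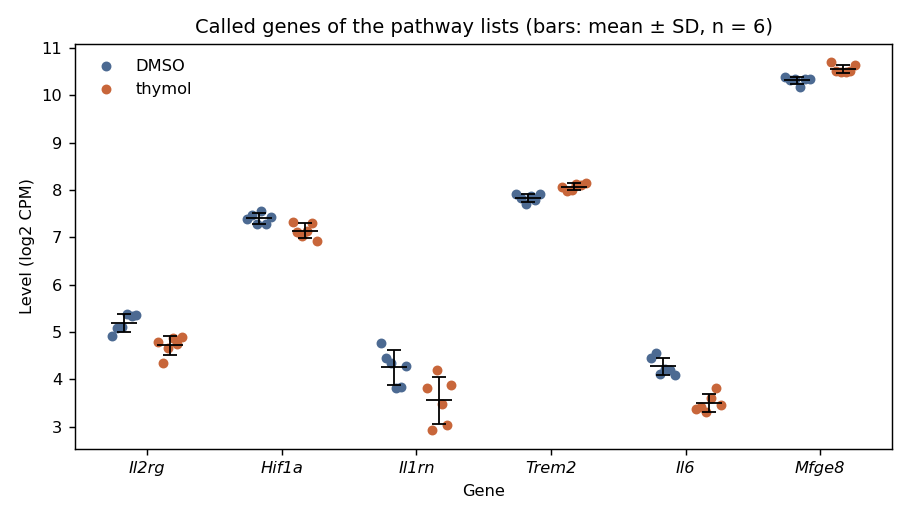
Level in log2 CPM (vertical axis) of the 6 called list genes in each library, DMSO in blue and thymol in orange, with bars for the mean ± SD of 6 libraries. *Il2rg* and *Il6* are lower with thymol and *Trem2* and *Mfge8* higher without overlap, while *Hif1a* and *Il1rn* overlap.

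The libraries are numbered 1 to 6 in each group, and odd and even numbers had been singled out in earlier work on these libraries, although the labels call neither a batch. This split is balanced over treatment and was not used to choose the genes. None of the 7 genes passed between odd and even libraries in limma (lowest adjusted p = 0.65, for *Il4ra*, at 0.13 ± 0.066 higher in odd libraries), where 5 of 10697 genes did, or 0.0467%, and 836 had an unadjusted p under 0.05. The thymol difference of *Arg1* was -1.27 in odd and -1.53 in even libraries, that of *Tgm2* -0.49 and -0.47, and that of *Folr2* 0.68 and 0.48. All 3 were chosen with values of these libraries known, so nothing is read from these signs. *Mrc1* had -0.088 and -0.31, *Il4ra* -0.20 and -0.18, *Stat6* 0.068 and -0.052, and *Chil3* 0.19 and -0.49. The gap between odd and even differences passed for none of the 7 (limma adjusted p of 0.997 for each) and for 0 of 10697 genes (0%), of which 531 had an unadjusted p under 0.05.

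Whether the 7 genes varied together between libraries of the same group was tested on deviations from the group means, which are independent of the thymol difference. Across the 21 pairs of genes and the 14 pairings of a gene with a mean of the macrophage or fibroblast markers, 0 of 35 relations passed after adjustment, and 4 had an unadjusted p under 0.05 (two-sided exact permutation within groups, 518400 relabellings). The relation with the lowest p was that of *Arg1* and *Il4ra*, with Pearson's r = 0.75 (exact permutation p = 0.0071, adjusted p = 0.14) and Spearman's rho = 0.69 (exact permutation p = 0.028, adjusted p = 0.43) over 12 libraries. Pearson's r was 0.50 within DMSO and 0.86 within thymol, and 0.60 without the thymol libraries 1 and 3, which lay farthest out for *Arg1*. *Mrc1* and *Chil3* had r = 0.80 (exact permutation p = 0.0081, adjusted p = 0.14) but rho = 0.34 (exact permutation p = 0.32, adjusted p = 0.74). Without the thymol libraries 1 and 4, the farthest out for *Mrc1*, r was 0.72. The macrophage marker mean had r = 0.78 with *Il4ra* (exact permutation p = 0.012, adjusted p = 0.14; rho = 0.66, exact permutation p = 0.037, adjusted p = 0.43) and r = 0.66 with *Arg1* (exact permutation p = 0.027, adjusted p = 0.24; rho = 0.46, exact permutation p = 0.17, adjusted p = 0.74). Without the 2 libraries farthest out for the gene, these were 0.72 for *Il4ra* (thymol 1 and 5 left out) and 0.45 for *Arg1* (thymol 1 and 3 left out). *Tgm2* had r = 0.51 with the fibroblast marker mean (exact permutation p = 0.091, adjusted p = 0.53). With the macrophage marker mean *Tgm2* had r = 0.22 (exact permutation p = 0.57, adjusted p = 0.79).

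The genes whose deviations were most like those of *Arg1*, among 5394 genes with a mean level of at least 5 log2 CPM, were *Rnaset2a* (r = 0.90), *Samm50* (0.90) and *Nt5c* (0.89). For *Tgm2* they were *Col4a2* (r = 0.87), *Fuca1* (0.87) and *Pck2* (0.87), and for *Folr2* they were *Azi2* (0.90), *Cox5b* (0.89) and *Lpin2* (0.87). These are the highest of 5393 or 5394 values over only 12 libraries, which differed in depth, and none of the 9 genes was itself called between thymol and DMSO.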

How the data were processed

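Total RNA of MAFs was sequenced by QuantSeq 3′ FWD. The authors aligned the reads with STAR 2.5.3 to GRCm38, counted them per gene with HTSeq 0.6.1, dropped genes with few reads and normalized library sizes with TMM factors. The deposited table held log2 CPM values with a prior count (log2 scale) for 10697 genes and 12 libraries, each mapped to a label by its column name. The study fitted a quasi-likelihood count model. The deposited values are log2, so limma 3.58.1 (R 4.3.3) was used here: lmFit and eBayes with a mean-variance trend, no covariate, two-sided p-values adjusted by Benjamini-Hochberg over all genes, and a threshold of 0.05 ("passed" or "called"). The fit was checked on simulated data. The SE of each difference and its p-value use a spread that limma moderates toward that of genes with a similar level. They therefore do not rest on the spread of the gene's own libraries alone. Nothing in the labels says that the libraries were separate cultures or animals, so the spread between libraries may be technical.

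Undoing the logarithm gave whole reads for 100% of values under 200 reads (within 0.02 of a whole number), summing to 5435985 to 9049796 per library. The prior was 1.96 reads in a library of mean size. Read numbers speak of counting error only.

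The members and lists were chosen with earlier results of these data known. Named genes are the members, every called gene and the 3 most abundant genes of each list, and the 3 genes most like *Arg1*, *Tgm2* and *Folr2*. Of these, 1 gene is not reported here. Others are said to be chosen after their values were seen. Marker genes *Lyz2*, *Col1a1*, *Col1a2*, *Col3a1*, *Pdgfra*, *Pdgfrb*, *Ctss*, *Itgam*, *S100a8*, *Mcpt8* and *Cdh5* were so chosen, as were those not analysed. Coordinates are those of GENCODE vM21 (GRCm38). Within-group relations were computed in Python 3.11.15. Alternatives were no trend, 10 CPM added, a mean of at least 3 log2 CPM, median centring, quantile normalization, a replicate block, voom on the recovered reads, odd and even numbers as a covariate or as subsets, and leaving out each library.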

Additional observations from a re-analysis of the deposited data

Results flagged for a closer look

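In the DMSO libraries *Mfge8* had 1 library (number 4, 10.17 log2 CPM) far below the other 5, with a gap of 0.728 of the whole range of the group. Among the thymol libraries, number 5 held 9049796 recovered reads and the next highest 6585162, a gap of 0.682 of the range. The critical value of Dixon's test for 6 samples is 0.625, and 2 of the 28 groups of values tested passed it, where chance flags about 1 in 20. Without DMSO library 4 the *Mfge8* difference was 0.21 and still passed, and without thymol library 5 the *Arg1* difference was -1.29.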

How the results depend on the processing

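*Arg1* and *Tgm2* passed under all 22 alternatives, and *Folr2* under all but 3, which were no trend, the even-numbered libraries alone and leaving out thymol library 6. These are refits of the same libraries, and the genes were chosen with their values known. The counts for these 3 genes therefore describe the processing only, and nothing more is read from them. Genes called over the table numbered 238, and 57 without the trend, 70 in the odd-numbered and 167 in the even-numbered libraries alone (3 against 3 in both). For the list genes the count was 6, and 1 without the trend, 0 in the odd-numbered and 4 in the even-numbered libraries (*Sdc4*, *Hif1a*, *Mfge8* and *Ch25h*). *Arg1* was at -1.40, and -0.69 with 10 CPM added. The odd against even count was 5, and 0 without the trend and 3 after quantile normalization. Leaving out each library in turn gave 172 to 270 genes called, 3 to 7 list genes called, 0 to 89 genes (89 without thymol library 5) between odd and even, and 0 to 5 (5 without thymol library 1) for the gap between their thymol differences. The cause of these shifts was not tested. Scaling moved the median of all genes by little, from 0.0026 to -0.0083 with median centring and 0.0062 with quantile normalization.

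Of the list genes, *Il6* and *Mfge8* passed in 20 of 22 alternatives, *Trem2* in 17, *Il2rg* in 15, *Hif1a* in 14 and *Il1rn* in 11. The highest adjusted p in limma was 0.19 for *Il6*, 0.29 for *Mfge8* and *Trem2*, 0.48 for *Il2rg*, 0.90 for *Hif1a* and 0.43 for *Il1rn*. Same-numbered libraries of the 2 groups correlated at -0.051 to 0.27, above 0.1 for 2 of 6 pairs, and 2 of 6 correlated best with their own number, so the numbers were not taken as a pairing. With the replicate block 332 genes were called, *Il4ra* passed beside the 3 members already called, and 9 list genes passed.

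Among the 7 members *Arg1* and *Chil3* had the fewest reads, down to 26 in a library.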

Other observations

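Several list genes that did not pass were near the threshold or passed under an alternative, and are given as values chosen after they were seen. The scavenger receptor genes *Msr1* and *Stab1*, both markers of alternatively activated macrophages, had differences of -0.25 ± 0.078 and -0.23 ± 0.072 (SE, limma adjusted p = 0.079 and 0.075), and both passed with the replicate block, *Msr1* also without DMSO library 2 or thymol library 1 and *Stab1* also without DMSO library 4. *Sdc4*, a proteoglycan partner of transglutaminase 2, had -0.27 ± 0.079 (limma adjusted p = 0.059) and passed with median centring, with 10 CPM added, with odd and even numbers as a covariate, with the replicate block, in the even-numbered libraries alone, and without DMSO library 3 or thymol library 5. *Egr2*, a regulator induced by IL-4, stood at 2.23 log2 CPM with DMSO and 3.10 with thymol, a difference of 0.87 ± 0.28 (SE, limma adjusted p = 0.086), and passed with 10 CPM added and without thymol library 4.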
